A study of Mus musculus with 51 samples.

Results

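The 10 genes described here encode the transcription factors and cofactors of the red cell and megakaryocyte programme: Gata1, Gata2, Tal1, Klf1, Lmo2, Gfi1b, Zfpm1, Nfe2, Lyl1 and Ldb1. They were chosen by name, and every probe set annotated to one of them was used, which gave 12 probe sets among 34945 that carry 1 gene. Gata2 and Zfpm1 have 2 probe sets each and the other genes have 1 each; no probe set was shared with a further gene. Among 18193 genes measured, each gene is represented by its brightest probe set unless another is named.

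RNA came from 4 progenitor populations sorted by flow cytometry out of whole mouse bone marrow, in mice that carry an Mll-AF9 knock-in and in wild type mice. Mll-AF9 is a leukaemia fusion gene that joins Mll (Kmt2a) to Af9 (Mllt3). The populations are labelled CMP (common myeloid progenitor), GMP (granulocyte-macrophage progenitor), CLP (common lymphoid progenitor) and HSC (haematopoietic stem cell). Mll-AF9 mice gave 4 CMP, 4 GMP, 7 CLP and 5 HSC replicates, and wild type mice gave 5 CMP, 5 GMP, 8 CLP and 5 HSC replicates. Strain, age, sorting gates and whether samples were pooled are not given in the labels. Values are log2 of the deposited RMA intensity, so 1 unit is a doubling. Nothing in the labels states that each replicate is its own animal; a p-value here reflects variation among these samples and could be partly technical.

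GATA2 and GATA1 are zinc finger proteins that bind the same short DNA motif. GATA2 serves stem and early progenitor cells, and GATA1 takes its place on many genes as cells enter the red cell, megakaryocyte or mast cell lineage. TAL1, a helix-loop-helix protein, is joined to GATA factors by the bridging proteins LMO2 and LDB1, and LYL1 is its close relative. KLF1 switches on globin and other red cell genes, ZFPM1 (also called FOG1) is the cofactor that GATA1 needs, GFI1B is a repressor that recruits histone demethylase Kdm1a, and NFE2 drives late megakaryocyte maturation and platelet release.

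Sequence around the annotated start sites was compared because 6 of these genes share a pattern across the populations and Lyl1 runs against it. RefSeq windows on GRCm38.p6, from 250 bases before to 50 bases after the start, matched 8 of the 10 genes and gave 12 windows; Lmo2 and Nfe2 were not matched. Capitals mark a GATA hexamer, which is AGATAA or AGATAG or TGATAA or TGATAG, and the E-box CAGATG. Both were searched on both strands, and neither overlaps the other where printed. Gata1 lies on the minus strand at chrX:7967861-7968160, Klf1 on the plus strand at chr8:84901732-84902031 and Gfi1b on the minus strand at chr2:28621933-28622232. The Tal1 window is the first of its 2 annotated starts, on the plus strand at chr4:115056176-115056475, and the Lyl1 window is on the plus strand at chr8:84701207-84701506.
Gata1: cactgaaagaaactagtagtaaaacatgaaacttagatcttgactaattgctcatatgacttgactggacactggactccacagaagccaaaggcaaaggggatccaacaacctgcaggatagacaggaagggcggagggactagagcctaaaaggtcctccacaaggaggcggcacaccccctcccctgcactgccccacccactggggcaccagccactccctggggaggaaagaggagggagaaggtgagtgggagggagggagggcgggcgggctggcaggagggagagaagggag
Klf1: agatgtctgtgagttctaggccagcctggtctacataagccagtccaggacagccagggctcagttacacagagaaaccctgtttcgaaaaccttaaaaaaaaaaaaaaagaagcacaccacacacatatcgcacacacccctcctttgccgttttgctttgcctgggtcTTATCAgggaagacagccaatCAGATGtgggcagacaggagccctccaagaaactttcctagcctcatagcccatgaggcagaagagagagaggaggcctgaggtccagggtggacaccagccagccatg
Gfi1b: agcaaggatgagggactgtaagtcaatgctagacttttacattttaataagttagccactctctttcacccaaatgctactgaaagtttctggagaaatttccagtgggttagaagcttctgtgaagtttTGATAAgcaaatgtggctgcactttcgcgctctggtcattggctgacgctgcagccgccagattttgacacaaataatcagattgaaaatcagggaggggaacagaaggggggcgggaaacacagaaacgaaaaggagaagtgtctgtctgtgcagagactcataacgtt
Tal1: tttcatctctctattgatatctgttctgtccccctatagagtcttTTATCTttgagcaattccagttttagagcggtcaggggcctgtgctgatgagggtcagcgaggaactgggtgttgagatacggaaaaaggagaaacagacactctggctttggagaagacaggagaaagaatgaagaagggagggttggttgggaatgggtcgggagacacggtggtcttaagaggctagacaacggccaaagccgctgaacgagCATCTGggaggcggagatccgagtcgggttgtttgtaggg
Lyl1: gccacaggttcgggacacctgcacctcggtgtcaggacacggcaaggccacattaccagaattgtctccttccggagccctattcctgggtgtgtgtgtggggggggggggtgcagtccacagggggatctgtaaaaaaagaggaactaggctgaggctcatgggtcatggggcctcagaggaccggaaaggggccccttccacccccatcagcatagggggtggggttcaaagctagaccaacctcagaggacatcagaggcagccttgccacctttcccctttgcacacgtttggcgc
A GATA hexamer lies 80 bases before the Klf1 start, 120 bases before the Gfi1b start and 205 bases before the Tal1 start. The Klf1 window also holds CAGATG 59 bases before the start, and the Tal1 window holds it 10 bases after the start. The Gata1 and Lyl1 windows hold neither set of letters. Among windows that are not printed, the third Ldb1 start has 2 GATA hexamers, and the other windows of Tal1 and Ldb1 and those of Gata2 and Zfpm1 have neither. Of 32851 windows of this length, 29.8% hold a GATA hexamer and 17.2% hold CAGATG, so matches of this kind are common.

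The populations were first set against their defining markers. The mean level of 6 granulocyte-macrophage markers such as Mpo and Elane was 11.57 ± 0.18 in Mll-AF9 GMP and 11.58 ± 0.18 in wild type GMP (SD). It was 7.65 ± 0.41 in Mll-AF9 CMP and 8.21 ± 0.50 in wild type CMP. These were the lowest means of each genotype: CLP had 8.76 in both, and HSC 7.80 ± 0.64 in Mll-AF9 and 8.45 ± 0.68 in wild type mice. Red cell markers had their highest mean in CMP, at 6.13 ± 0.13 in Mll-AF9 and 6.07 ± 0.11 in wild type mice. Platelet and megakaryocyte markers did too, at 7.49 ± 0.12 in Mll-AF9 CMP and 7.28 ± 0.72 in wild type CMP. Lymphoid progenitor markers averaged 7.41 ± 0.52 in Mll-AF9 CLP and 8.32 ± 0.66 in wild type CLP, above 5.62 ± 0.44 in Mll-AF9 HSC and 6.20 ± 0.23 in wild type HSC. Stem cell markers were nearly as high in CLP as in HSC: they averaged 8.44 ± 0.55 in Mll-AF9 CLP and 8.00 ± 0.53 in wild type CLP, beside 9.11 ± 0.35 in Mll-AF9 HSC and 8.31 ± 0.29 in wild type HSC. Another label field calls all 7 Mll-AF9 CLP samples and wild type CLP replicate 1 CMP; the sample titles were followed. No Mll-AF9 replicate had a Y-linked mean above 6, whereas 3 of 5 CMP, 3 of 5 GMP, 6 of 8 CLP and 2 of 5 HSC replicates of wild type did, so sex and genotype partly coincide.

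The red cell factors were highest in CMP and lowest in GMP in both genotypes. Gata1, Tal1, Klf1, Gfi1b, Zfpm1 and Ldb1, 6 of the 10 genes, had their highest mean in CMP, and these 6 together with Gata2 had their lowest mean in GMP. Lmo2, Nfe2 and Lyl1 had their lowest mean in CMP instead. The deposited CMP values carry up to 9 decimals and those of the other 3 populations up to 2, and the sources used here do not state whether all arrays were normalized together. A separate normalization of CMP cannot be told apart from the population in any contrast of CMP with GMP, CLP or HSC; the genotype comparison within CMP does not cross it. Quantile normalization of all arrays together, which cannot undo a separate probe-level step, changed no call of these genes between CMP and another population. These are levels per amount of RNA in a bulk sample, in which fewer cells of a type and less RNA per cell cannot be told apart.

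**Figure D1:**
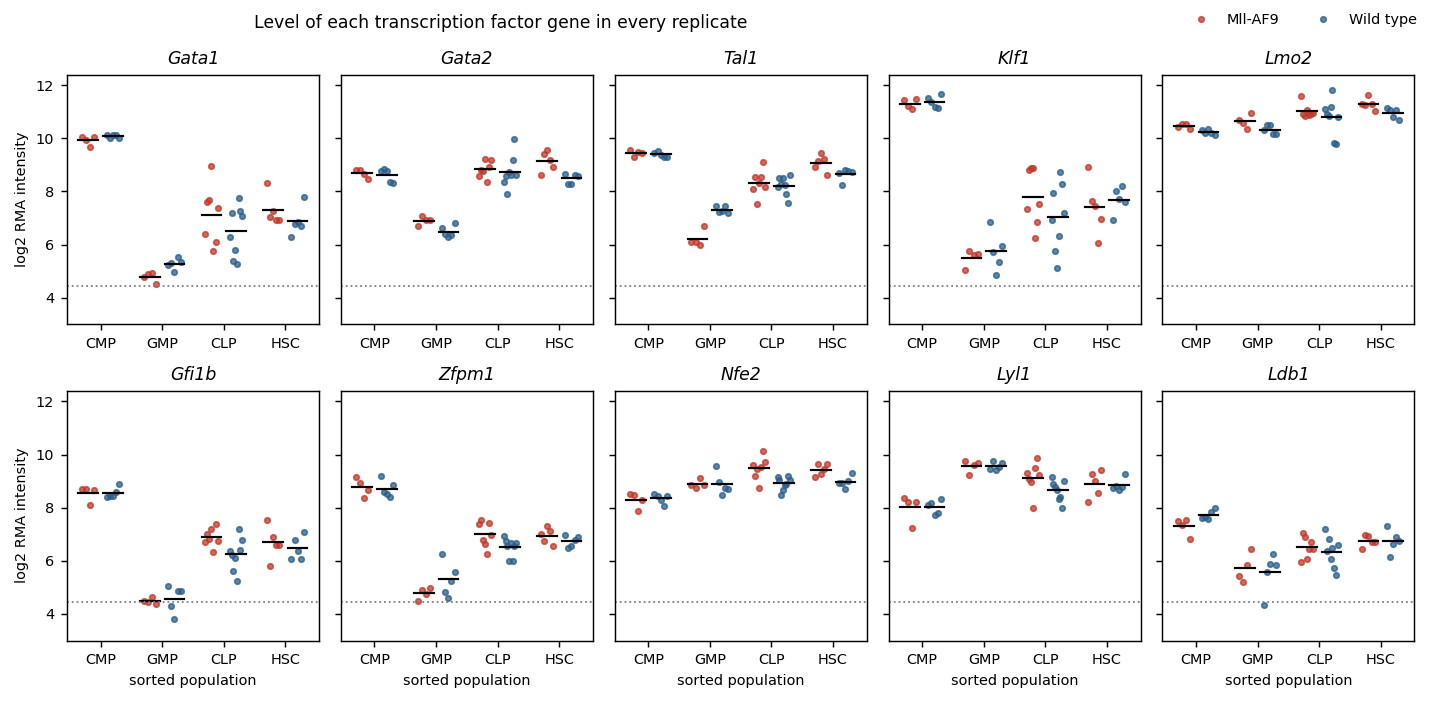
Level of each of the 10 genes (log2 RMA intensity, vertical axis) in every replicate of the 4 sorted populations; red points are Mll-AF9 and blue points wild type, black bars are group means, and the dotted line at 4.46 is the background level. Gata1, Klf1, Gfi1b and Zfpm1 stand highest in CMP and lowest in GMP, Lyl1 stands highest in GMP, and in GMP the 4 Mll-AF9 points of Tal1 lie below the 5 wild type points.

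Gata1 had 10.06, 9.92, 9.69 and 10.05 in Mll-AF9 CMP and 10.14, 10.02, 10.12, 10.13 and 9.997 in wild type CMP. In GMP it had 4.79, 4.89, 4.94 and 4.50 in Mll-AF9 replicates and 5.22, 5.32, 4.99, 5.55 and 5.36 in wild type replicates. No GMP value came near a CMP value, and the GMP values sat just above 4.46, the background level set by genes of other tissues. The CMP minus GMP difference was 5.15 ± 0.46 (SE) in Mll-AF9 cells, with a limma adjusted p of 5.23e-12. In wild type cells it was 4.80 ± 0.41, a 27.8-fold higher level in CMP, with an adjusted p of 1.22e-12. HSC lay between these populations, with 8.30, 7.03, 7.28, 6.93 and 6.92 in Mll-AF9 replicates and 6.27, 6.77, 6.87, 6.69 and 7.79 in wild type replicates. CLP ran from 5.77 through a median of 7.36 to 8.96 in Mll-AF9 replicates and from 5.27 through 6.69 to 7.74 in wild type replicates. CLP and HSC did not differ beyond their spread in either genotype: the difference was -0.17 ± 0.38 in Mll-AF9 cells and -0.37 ± 0.37 in wild type cells.

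Gata2 followed a different order: it was low in GMP alone. Its mean was 8.68 ± 0.16 in Mll-AF9 CMP, 8.83 ± 0.31 in Mll-AF9 CLP and 9.14 ± 0.37 in Mll-AF9 HSC, against 6.91 ± 0.15 in Mll-AF9 GMP (SD). In wild type mice it was 8.62 ± 0.25 in CMP, 8.74 ± 0.61 in CLP and 8.49 ± 0.18 in HSC, against 6.49 ± 0.21 in GMP. CMP, CLP and HSC were not called apart in any of their 3 pairwise tests in either genotype, although with replicate number as a block CMP was lower than HSC in Mll-AF9 cells (-0.54, adjusted p = 0.0492). The lowest Gata2 value outside GMP was 7.89, in wild type CLP replicate 3, above the highest GMP value of 7.06. The other Gata2 probe set showed a smaller contrast, with a CMP minus GMP difference of 0.85 ± 0.24 in wild type cells (adjusted p = 0.00574 over all probe sets) where the brighter one gave 2.13 ± 0.23. Between wild type GMP and HSC it gave -0.35 ± 0.24 and was not called (adjusted p = 0.261), where the brighter one gave -2.00 ± 0.23.

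Among the partners in the GATA1 complex, Tal1 and its bridge Ldb1 had their population means in the same order as Gata1, with smaller contrasts. Lmo2 and the Tal1 relative Lyl1 had a different order. Tal1 had 9.55, 9.30, 9.50 and 9.44 in Mll-AF9 CMP and 9.45, 9.52, 9.39, 9.30 and 9.30 in wild type CMP. HSC values were 8.91, 9.14, 9.43, 9.23 and 8.63 in Mll-AF9 replicates and 8.68, 8.25, 8.80, 8.78 and 8.74 in wild type replicates. In wild type mice every CMP value was above every HSC value, and CMP minus HSC was 0.74 ± 0.20 (adjusted p = 0.00497). In Mll-AF9 mice the 2 groups overlapped, and the difference of 0.38 ± 0.21 was not called (adjusted p = 0.242). CLP replicates ran from 7.54 through 8.31 to 9.10 in Mll-AF9 mice and from 7.55 through 8.26 to 8.62 in wild type mice. The Tal1 levels in GMP are given with the genotype comparison, where they differed.

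Lyl1 had 9.75, 9.23, 9.62 and 9.68 in Mll-AF9 GMP and 9.45, 9.74, 9.41, 9.55 and 9.67 in wild type GMP. In CMP it had 8.38, 8.22, 7.23 and 8.21 in Mll-AF9 replicates and 8.11, 8.16, 7.73, 7.78 and 8.31 in wild type replicates. All GMP values were above all CMP values, the reverse of Tal1. CMP minus GMP was -1.56 ± 0.28 in Mll-AF9 cells (adjusted p = 2.90e-05) and -1.54 ± 0.25 in wild type cells (adjusted p = 4.08e-06). Between GMP and HSC, Lyl1 was higher in GMP by 0.67 ± 0.26 in Mll-AF9 cells (adjusted p = 0.0456) and by 0.70 ± 0.25 in wild type cells (adjusted p = 0.0234). That call was lost in Mll-AF9 cells without any 1 of Mll-AF9 GMP replicates 1, 3 and 4 or HSC replicates 1, 3 and 4, and in wild type cells without GMP replicate 2 or HSC replicate 3, with adjusted p-values of 0.0507 to 0.154. The Mll-AF9 call was also lost with quantile normalization of all arrays (0.0581) and when fitted on the 2 groups only (0.0522). It was lost too with the 3′ minus 5′ difference of control probe sets, a sign of RNA quality, as a covariate (0.0635).

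Lmo2 stayed between 9.78 and 11.83 in all 43 replicates, and its group means ran from 10.23 in wild type CMP to 11.30 in Mll-AF9 HSC. CMP and GMP were not told apart, with differences of -0.17 ± 0.24 in Mll-AF9 cells and -0.10 ± 0.22 in wild type cells. CMP was lower than HSC by -0.84 ± 0.23 in Mll-AF9 cells (adjusted p = 0.00542) and -0.73 ± 0.22 in wild type cells (adjusted p = 0.0102). Ldb1 averaged 7.31 ± 0.34 in Mll-AF9 CMP and 7.74 ± 0.18 in wild type CMP, against 5.73 ± 0.55 in Mll-AF9 GMP and 5.58 ± 0.72 in wild type GMP (SD). Its CMP minus GMP difference was 1.58 ± 0.32 in Mll-AF9 cells and 2.16 ± 0.29 in wild type cells.

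Klf1 had the largest contrast of the 10 genes. It had 11.42, 11.22, 11.10 and 11.49 in Mll-AF9 CMP and 11.52, 11.37, 11.19, 11.15 and 11.66 in wild type CMP. In GMP it had 5.03, 5.74, 5.61 and 5.64 in Mll-AF9 replicates and 6.87, 5.72, 4.84, 5.36 and 5.95 in wild type replicates. CMP stood far above GMP in every replicate, and wild type GMP replicate 1 was the highest of the 9 GMP samples. CMP minus GMP was 5.80 ± 0.56 in Mll-AF9 cells (adjusted p = 6.54e-11) and 5.63 ± 0.51 in wild type cells (adjusted p = 5.27e-12), the wild type value being a 49.5-fold difference. HSC had 8.91, 7.63, 7.46, 6.04 and 6.98 in Mll-AF9 replicates and 6.94, 8.00, 7.74, 8.19 and 7.59 in wild type replicates. These values lay below every CMP value, with CMP minus HSC at 3.90 ± 0.54 in Mll-AF9 cells and 3.69 ± 0.51 in wild type cells.

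Gfi1b and Zfpm1 followed nearly the same course. Gfi1b averaged 8.54 ± 0.30 in Mll-AF9 CMP and 8.56 ± 0.21 in wild type CMP, against 4.49 ± 0.11 in Mll-AF9 GMP and 4.58 ± 0.51 in wild type GMP (SD). In GMP 1 of 4 Mll-AF9 replicates and 2 of 5 wild type replicates fell below the background level, so Gfi1b was barely measured there. Zfpm1 averaged 8.78 ± 0.35 in Mll-AF9 CMP and 8.71 ± 0.32 in wild type CMP, against 4.78 ± 0.21 in Mll-AF9 GMP and 5.30 ± 0.65 in wild type GMP. CMP minus GMP was 4.05 ± 0.31 in Mll-AF9 cells and 3.98 ± 0.28 in wild type cells for Gfi1b, and 4.00 ± 0.28 in Mll-AF9 cells and 3.41 ± 0.25 in wild type cells for Zfpm1. The dimmer Zfpm1 probe set was below background in all 9 GMP replicates, so the size of its contrast is limited by background.

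Nfe2 had its lowest mean in CMP. It averaged 8.29 ± 0.29 in Mll-AF9 CMP, against 9.48 ± 0.44 in Mll-AF9 CLP and 9.43 ± 0.22 in Mll-AF9 HSC (SD). CMP minus CLP was -1.20 ± 0.19 in Mll-AF9 cells (adjusted p = 7.50e-06) and -0.57 ± 0.18 in wild type cells (adjusted p = 0.0143). Against HSC, CMP was lower by -1.15 ± 0.21 in Mll-AF9 cells (adjusted p = 4.78e-05) and -0.63 ± 0.20 in wild type cells (adjusted p = 0.0142). Without wild type CMP replicate 4 neither wild type call held, with adjusted p-values of 0.0597 against CLP and 0.0510 against HSC. In GMP, wild type replicate 1 had 9.57, the other wild type replicates 8.47 to 8.95 and the Mll-AF9 replicates 8.74 to 9.11. CMP minus GMP was -0.60 in Mll-AF9 cells (adjusted p = 0.0426) and -0.54 in wild type cells (adjusted p = 0.0292). The Mll-AF9 call was lost without any 1 of CMP replicates 3 and 4 and GMP replicates 1, 3 and 4. The wild type call was lost without any 1 of CMP replicates 3 and 4 and GMP replicates 1 and 2. Without wild type GMP replicate 1 the difference was -0.37 (adjusted p = 0.152).

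A call is a Benjamini-Hochberg adjusted p below 0.05 over all 18193 genes. Counted over the 10 genes, CMP minus GMP gave 7 higher and 2 lower calls in Mll-AF9 cells, where 8.54% of all genes were called higher and 13.5% lower. The counts were the same in wild type cells, where 11.4% of all genes were called higher and 20.3% lower. CMP minus CLP gave 6 higher and 2 lower in Mll-AF9 cells (8.72% and 11.7% of all genes) and 6 higher and 3 lower in wild type cells (11.9% and 11.8%). Without wild type CMP replicate 4 none of those 3 lower calls held: the adjusted p was 0.0589 for Lmo2, 0.0597 for Nfe2 and 0.0989 for Lyl1. Lmo2 was also lost without any 1 of wild type CMP replicates 2 and 5 and CLP replicates 1, 4 and 5. Lyl1 was also lost without any 1 of wild type CMP replicates 1 and 3 and CLP replicates 1, 2, 3 and 8. The Mll-AF9 Ldb1 call had an adjusted p of 0.0391. It was lost without any 1 of Mll-AF9 CMP replicates 1, 2 and 3 and CLP replicates 1, 4, 5 and 7. It was lost too with the second CMP runs only (0.165) and the 3′ minus 5′ covariate (0.296). CMP minus HSC gave 4 higher and 3 lower in Mll-AF9 cells (10.6% and 10.3%) and 6 higher and 3 lower in wild type cells (11.7% and 10.8%). GMP minus CLP gave 0 higher and 8 lower in Mll-AF9 cells (17.4% and 12.6%) and 1 higher and 8 lower in wild type cells (28.3% and 14.7%). The wild type Lmo2 call among these had an adjusted p of 0.0499. It was lost under several alternatives, such as the Y-linked covariate (0.0724) and the 3′ minus 5′ covariate (0.0715). The wild type Ldb1 call was lost without GMP replicate 1 (0.143) and when fitted on the 2 groups only (0.0632). The wild type Klf1 call was lost without GMP replicate 3 (0.0785), GMP replicate 4 (0.0527) or CLP replicate 6 (0.0529). On the 2 groups only its adjusted p was 0.0574. In Mll-AF9 cells the Nfe2 and Ldb1 calls between GMP and CLP were also lost under several alternatives. GMP minus HSC gave 1 higher and 9 lower in Mll-AF9 cells (20.3% and 12.5%) and 1 higher and 8 lower in wild type cells (24.6% and 13.4%). Leaving out any 1 replicate reduced the 10 Mll-AF9 calls to 8 or 9. Nfe2 was lost without any 1 of Mll-AF9 GMP replicates 1, 2 and 4 and HSC replicates 2, 4 and 5. Lmo2 was lost without any 1 of Mll-AF9 GMP replicates 2 and 3 and HSC replicate 3. Wherever 1 gene was called higher in GMP it was Lyl1. These contrasts share samples within a genotype, so the counts are not independent of each other.

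CLP and HSC were seldom told apart, by these genes or over all genes. No member was called between them in wild type mice by limma, where 0.313% of all genes were called and 1 of the 10 genes had an unadjusted p below 0.05. In Mll-AF9 mice 1 gene was called where 3.74% of all genes were: Tal1 was lower in CLP than in HSC by -0.74 ± 0.19 (adjusted p = 0.0173). The adjusted p was 0.0729 without Mll-AF9 HSC replicate 3 and 0.0527 without Mll-AF9 HSC replicate 4, and the 2 groups overlapped.

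**Figure D2:**
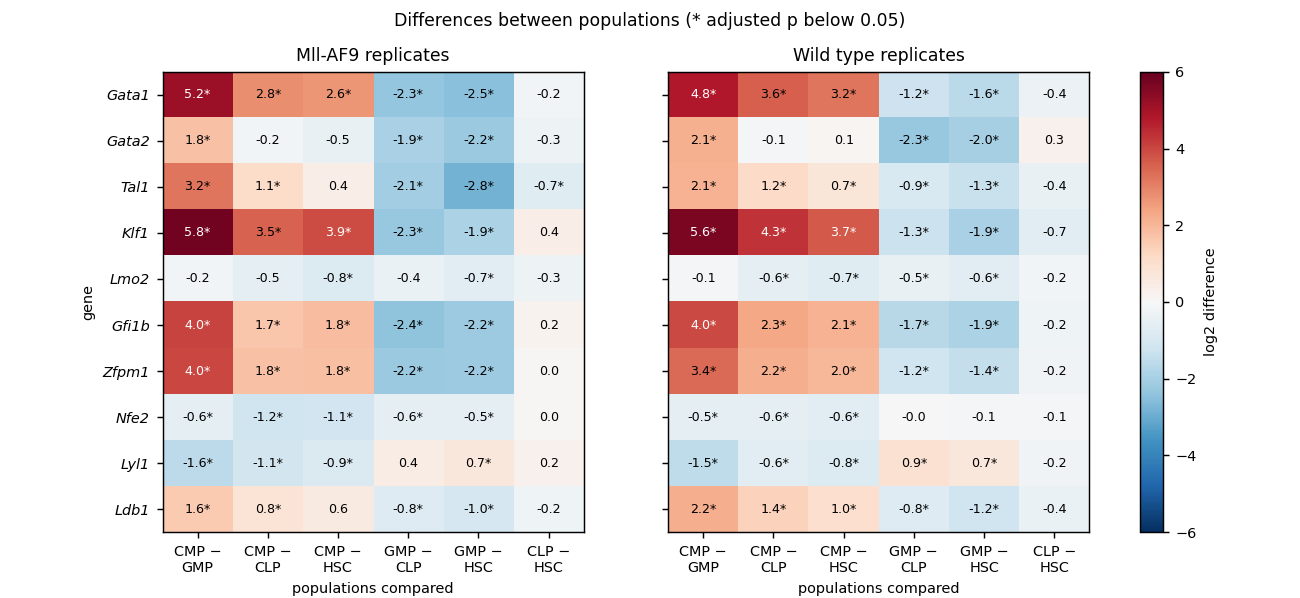
Difference between each pair of populations (columns, log2, first-named minus second-named) for each of the 10 genes (rows), in Mll-AF9 replicates on the left and wild type replicates on the right; red is positive, blue negative, and an asterisk marks an adjusted p below 0.05. The CMP minus GMP column is strongly positive for Gata1, Klf1, Gfi1b and Zfpm1 and negative for Lyl1 in both genotypes.

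Red cell genes were also mostly higher in CMP than in GMP. Of 24 measured red cell genes, 17 were higher and 0 lower in Mll-AF9 CMP than in Mll-AF9 GMP, and 16 were higher and 0 lower in wild type. The median difference was 1.29 in Mll-AF9 cells and 1.34 in wild type cells, against -0.11 and -0.13 over all genes. In wild type cells Car1, a carbonic anhydrase of red cells, averaged 12.63 in CMP and 5.51 in GMP, Rhag, a red cell membrane channel, averaged 8.48 and 2.84, and the blood group gene Ermap averaged 11.85 and 5.35. The Rhag value in GMP was below background. Hba-a1 and Alas2 were not above background: in wild type cells Hba-a1, an alpha globin gene, averaged 3.07 in CMP and 3.30 in GMP, and the haem synthesis gene Alas2 averaged 3.37 in CMP and 3.27 in GMP.

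Of 21 megakaryocyte and platelet genes, 10 were higher and 0 lower in CMP than in GMP in each genotype. The thrombin receptor gene F2r averaged 11.01 in wild type CMP and 7.85 in wild type GMP, and Vwf, von Willebrand factor, averaged 8.04 in wild type CMP and 5.98 in wild type GMP. Of 11 mast cell and basophil genes, 1 was higher and 3 lower in Mll-AF9 CMP than in Mll-AF9 GMP, and 1 was higher and 4 lower in wild type. The histamine enzyme gene Hdc was among the lower ones, at 5.78 in wild type CMP and 9.59 in wild type GMP.

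Other parts of the regulatory network were split. Of 19 partners and corepressors of the GATA1 and TAL1 complexes, 9 were higher and 1 lower in Mll-AF9 CMP than in Mll-AF9 GMP, and 9 were higher and 2 lower in wild type. The E protein gene Tcf12, whose product pairs with TAL1, averaged 9.64 in wild type CMP and 7.42 in wild type GMP, and the corepressor gene Cbfa2t3 averaged 8.15 in wild type CMP and 6.50 in wild type GMP. Of 20 further transcription factors of red cells and megakaryocytes, 8 were higher and 1 lower in Mll-AF9 CMP, and 11 higher and 2 lower in wild type CMP. Nfia showed the largest difference, 4.45 ± 0.34 in Mll-AF9 cells and 4.28 ± 0.31 in wild type cells. Of 15 myeloid and lymphoid transcription factors, 3 were higher and 6 lower in Mll-AF9 CMP than in Mll-AF9 GMP, and 2 higher and 6 lower in wild type. Cebpa, the main factor of the granulocyte lineage, averaged 5.09 in wild type CMP and 8.87 in wild type GMP, and Gfi1, the relative of Gfi1b, averaged 3.93 in wild type CMP and 7.36 in wild type GMP. The Gfi1 value in CMP was below background.

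Likeness of pattern was measured as the root mean square difference between the 8 group means of 2 genes, each centred on its own mean. Within the 10 genes, Gfi1b and Zfpm1 were nearest to each other at 0.17 log2 units, followed by Lmo2 and Nfe2 at 0.22 and Gata1 and Klf1 at 0.39. The search covered 11275 other genes above background in at least 1 group. Names of predicted genes and clones were passed over, and so was every name that begins with E and a digit, such as the E2f genes. Among the genes searched, the nearest to Gata1 were Tspan33 at 0.19, Abcb4 at 0.26 and Trib2 at 0.32. The nearest to Klf1 were Aqp1 at 0.22, Trib2 at 0.30 and Mfsd2b at 0.32. For Gfi1b they were Nfia at 0.21, Cd55 at 0.28 and Ell2 at 0.28, and for Zfpm1 they were Pheta2 at 0.20, Cd55 at 0.23 and Cyth3 at 0.25. Gata2 had Senp6 at 0.11, Tnrc6b at 0.17 and Tfdp2 at 0.18, and Ldb1 had B3glct at 0.17, Fads2 at 0.18 and Acp1 at 0.18. Tal1 had no close match: its nearest genes were Isg20 at 0.29, Psmd7 at 0.30 and Adcy6 at 0.31. Genes with small contrasts lie close to many others, as Lmo2 did to Ak1 at 0.070, Mtmr3 at 0.082 and Pramel12 at 0.098. Nfe2 had Samhd1 at 0.076, Ralgds at 0.10 and Zfyve27 at 0.11, and Lyl1 had Rnf185 at 0.065, Psmb10 at 0.091 and Msra at 0.10.

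The comparison the series was made for sets Mll-AF9 cells against wild type cells within each population. In GMP, Tal1 was the single member called, where 0.269% of all genes were called and 0.0989% were called lower. Tal1 had 6.08, 6.11, 5.99 and 6.71 in Mll-AF9 GMP, against 7.45, 7.22, 7.25, 7.45 and 7.19 in wild type GMP. The groups did not overlap, and the highest Mll-AF9 value, in replicate 4, lay apart from the other three. The difference was -1.09 ± 0.18, a 2.13-fold lower level (limma adjusted p = 0.0163). All these values were above the background level of 4.46. The direction held without any 1 replicate, with differences of -1.25 to -1.01, but the adjusted p was 0.0844, 0.0699 and 0.0903 without Mll-AF9 GMP replicates 1, 2 and 3, and 0.0612 and 0.0542 without wild type GMP replicates 4 and 5. With the Y-linked level as a covariate the difference was -1.11 and the adjusted p 0.147. Among replicates with a low Y-linked level, 4 Mll-AF9 and 2 wild type, it was -1.10 and the adjusted p 0.0388; that comparison was chosen after seeing the data.

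**Figure D3:**
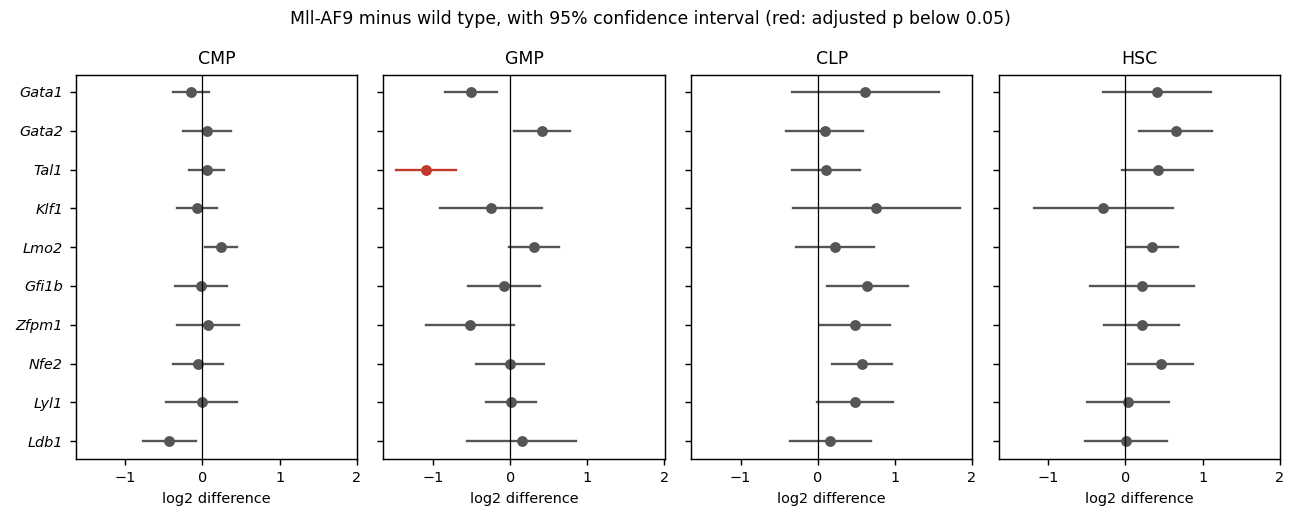
Mll-AF9 minus wild type difference (log2, horizontal axis) of the 10 genes in each population; points are differences and lines 95% confidence intervals. In GMP Tal1, in red, is the single gene called, at -1.09; in CLP all 10 points lie above 0 with wide intervals.

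The other 9 genes were not called in GMP. Gata1 was the other gene whose GMP groups did not overlap, where 4.36% of all genes had groups that did not: its difference was -0.50 ± 0.16 (95% interval -0.85 to -0.16, adjusted p = 0.291). Gata2 pointed the other way at 0.42 ± 0.17 (interval 0.053 to 0.78, adjusted p = 0.446), but its other probe set gave -0.26 ± 0.17. Zfpm1 gave -0.52 ± 0.27, and wild type GMP replicate 1, at 6.24, was the highest of the 9 GMP values. That replicate also had the highest Klf1, Gfi1b and Nfe2 and the lowest Ldb1 in GMP, and its 3′ minus 5′ difference of control probe sets, a sign of RNA quality, was 4.70, the highest in GMP. With that difference as a covariate Zfpm1 gave -0.41 and Tal1 -1.06 (adjusted p = 0.0355). The median difference of the 10 genes was -0.04, against -0.02 over all genes.

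In CMP no member was called by limma, where 0.423% of all genes were, and 2 of the 10 genes had an unadjusted p below 0.05. The differences of Gata1, Gata2, Tal1, Klf1, Gfi1b, Zfpm1, Nfe2 and Lyl1 lay between -0.15 and 0.07. The interval for Klf1 was -0.33 to 0.20 and that for Gata1 was -0.38 to 0.08. Lmo2 gave 0.24 ± 0.10 (interval 0.03 to 0.45, adjusted p = 0.648). Ldb1 was 7.51, 7.36, 7.55 and 6.82 in Mll-AF9 CMP, against 7.62, 7.65, 7.58, 7.84 and 8.00 in wild type CMP. These groups did not overlap, where 2.66% of all genes had groups that did not, but the difference of -0.43 ± 0.16 was not called (adjusted p = 0.561).

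In CLP no member was called by limma, where 0.346% of all genes were, and 3 of the 10 genes had an unadjusted p below 0.05. All 10 differences were above 0, with a median of 0.48 against 0.06 over all genes, and all 10 pairs of groups overlapped, where 0.253% of all genes had groups that did not. Nfe2 gave 0.57 ± 0.18 (interval 0.19 to 0.96, adjusted p = 0.301) and Gfi1b 0.64 ± 0.25 (interval 0.12 to 1.17, adjusted p = 0.428). Klf1 gave the largest difference, 0.76 ± 0.52, with an interval of -0.34 to 1.85. Over all genes, 61.0% of differences in CLP were above 0. Other measures differed too: neutrophil markers averaged 8.99 in Mll-AF9 CLP (7.09 to 12.21) and 6.72 in wild type CLP (4.03 to 11.48), and T and NK cell markers averaged 5.56 (4.78 to 5.81) in Mll-AF9 CLP and 4.99 (4.34 to 5.49) in wild type CLP. The 3′ minus 5′ difference of control probe sets was 4.18 ± 0.53 in Mll-AF9 CLP and 3.69 ± 0.21 in wild type CLP (SD). With that difference as a covariate 9 of the 10 stayed above 0 and Lmo2 was at -0.08, and with the Y-linked level as a covariate Tal1 was at -0.14; no member was called in either fit. The part of the neutrophil, T and NK cell markers in the CLP differences was not tested.

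In HSC no member was called by limma, where 0.055% of all genes were, and 3 of the 10 genes had an unadjusted p below 0.05. The median difference was 0.28 against 0.01 over all genes, and 9 of 10 were above 0, Klf1 being the exception at -0.29 ± 0.42. Gata2 had 8.63, 9.39, 9.55, 9.18 and 8.94 in Mll-AF9 HSC, against 8.66, 8.29, 8.30, 8.63 and 8.57 in wild type HSC. Apart from Mll-AF9 replicate 1, every Mll-AF9 value was above every wild type value, and the difference was 0.65 ± 0.22 (interval 0.18 to 1.12, adjusted p = 0.623). The other Gata2 probe set gave 0.44 ± 0.24.

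Whether the genotype difference itself varied between populations was tested for each gene and each pair of populations, 60 tests on these genes in all. The Tal1 difference in GMP was below that in HSC by -1.51 ± 0.29 (adjusted p = 0.0333), the single call among the 60. Over all genes, 0.044% were called for GMP minus HSC, 0.066% for GMP minus CLP, 0.066% for CMP minus CLP, 0.143% for CLP minus HSC and 0% for CMP minus GMP and CMP minus HSC. It was -1.09 in GMP and 0.42 in HSC. The same contrast between GMP and CLP was -1.19 ± 0.27 (adjusted p = 0.0613), and CMP minus GMP was 1.14 ± 0.30 (adjusted p = 1.00). The call for GMP and HSC was lost without any 1 of Mll-AF9 GMP replicates 1, 2 and 3, wild type GMP replicates 1, 3 and 4, Mll-AF9 HSC replicates 3 and 4 and wild type HSC replicates 1 and 2, with adjusted p-values of 0.0522 to 0.116.

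Few genes were called between genotypes, in the related lists or over all genes. Of all genes, 0.423% were called in CMP, 0.269% in GMP, 0.346% in CLP and 0.055% in HSC. Of 24 red cell genes, 0 were called in any population by limma, with 1 in CMP, 1 in GMP, 4 in CLP and 5 in HSC at an unadjusted p below 0.05. Of 20 further transcription factors of these lineages, 0 were called, with 1, 3, 3 and 3 at an unadjusted p below 0.05 in CMP, GMP, CLP and HSC. The complex partner Tcf4, an E protein, was lower in CLP, at 8.82 in Mll-AF9 mice and 9.57 in wild type mice (adjusted p = 0.0437), and it was the single call among 19 partners in any of the 4 populations. Of 21 megakaryocyte and platelet genes, 1 was called higher in each of CMP, GMP and CLP: Selp, the adhesion molecule P-selectin, at 7.06 in Mll-AF9 GMP and 5.34 in wild type GMP, for instance. Slc35d3, a platelet granule gene, was lower in CLP, at 5.86 in Mll-AF9 mice and 7.86 in wild type mice. Among mast cell genes, Fcer1a, a chain of the IgE receptor, was higher in CMP, at 4.69 in Mll-AF9 mice and 3.15 in wild type mice. The wild type value was below the background level of 4.46 and the Mll-AF9 value little above it. Among myeloid and lymphoid transcription factors, Mecom, Hoxa9 and Meis1 were higher in Mll-AF9 GMP, Mecom and Hoxa9 in Mll-AF9 CMP and Mecom in Mll-AF9 CLP.

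Klf1 and Gata1 varied more within CLP than within CMP. Klf1 ran from 6.26 through 7.51 to 8.90 in Mll-AF9 CLP and from 5.10 through 7.05 to 8.72 in wild type CLP, with an SD of 1.08 in Mll-AF9 CLP and 1.26 in wild type CLP, against 0.18 in Mll-AF9 CMP and 0.22 in wild type CMP. The Klf1 SD was 1.04 in Mll-AF9 HSC and 0.48 in wild type HSC, and 0.32 in Mll-AF9 GMP and 0.75 in wild type GMP. Gata1 had an SD of 1.11 in Mll-AF9 CLP and 0.94 in wild type CLP, against 0.58 in Mll-AF9 HSC and 0.56 in wild type HSC. Mll-AF9 CLP replicates 2, 3 and 4 had Klf1 at 8.81, 8.88 and 8.90, and the mean level of the 24 red cell genes there was 7.05, 7.00 and 7.27, against 5.99 to 6.38 in the other 4 Mll-AF9 CLP replicates. In wild type CLP, where Klf1 spread as widely, the mean of the 24 red cell genes ran from 5.91 to 6.65. The mean of a shorter list of red cell markers, with Car1 among them, spread more there. It ran from 4.00 to 5.77 in wild type CLP and from 4.11 to 6.17 in Mll-AF9 CLP. Mll-AF9 HSC replicate 1, with the highest Gata1 (8.30) and Klf1 (8.91) of HSC, had a red cell mean of 7.19, against 6.19 to 6.65 in the other Mll-AF9 HSC replicates and 6.25 to 6.43 in wild type HSC.

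Mast cell and basophil genes also varied in CLP. The mean of the 11 genes ran from 5.06 to 7.17 in Mll-AF9 CLP and from 5.66 to 8.29 in wild type CLP, against 4.23 to 5.68 in Mll-AF9 HSC and 5.00 to 6.12 in wild type HSC. Wild type CLP replicates 6 and 7 had 7.00 and 8.29, and these 2 samples had the highest Gata2 of wild type CLP, 9.19 and 9.96, the highest Klf1, 8.72 and 8.27, and the lowest Lmo2, 9.84 and 9.78. The part of such cells in the CLP values of Gata1, Gata2 and Klf1 was not tested.

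**Figure D4:**
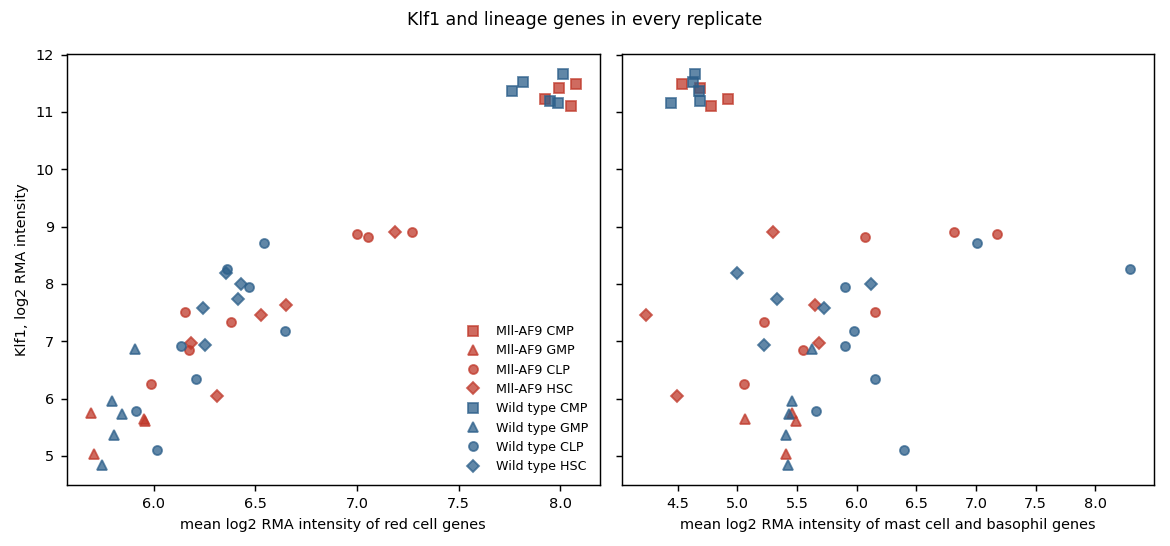
Klf1 level (log2 RMA intensity, vertical axis) in each of the 43 replicates against the mean level of 24 red cell genes (left) and of 11 mast cell and basophil genes (right); red is Mll-AF9, blue is wild type, and the marker shape gives the population. The 9 CMP replicates sit apart at Klf1 values above 11, and among CLP and HSC the replicates with the highest Klf1 include those with the highest red cell means.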

How the data were processed

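Labelled RNA was hybridised to 51 Affymetrix arrays. The deposited values are linear RMA intensities, computed by the authors (RMA is named in the submitters' processing notes, with no version); log2 of the deposited intensities was taken here. RNA was amplified with a 2 cycle protocol, per the labels, which favours 3′ ends. Repeat runs of 8 CMP replicates were averaged, giving 43 replicates. Of 45101 probe sets, 34945 carry 1 gene in GEO's platform annotation, and the brightest probe set stood for each of 18193 genes. Background (4.46) is the 95th percentile of the means of 112 olfactory, vomeronasal, taste receptor and hair keratin-associated genes. limma 3.58.1 in R 4.3.3 tested genotypes within each population, and populations and differences of effect in 1 model of 8 group means, with Benjamini-Hochberg adjustment over all genes; the procedure was tested on simulated data. The number of arrays limits precision.

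The members and gene lists were chosen with earlier results of these data known. Named list genes are up to 4 called genes of largest difference per list and comparison; Hba-a1 and Alas2 were named after their values were seen. Alternatives covered normalization, probe set choice, background filter, intensity trend, covariates, CMP runs, replicate block and leaving out each replicate.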

Additional observations from a re-analysis of the deposited data

Results flagged for a closer look

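Each group, of 4 to 8 replicates, was searched for a highest or lowest value that lies far from the others, and 7 of 80 groups had one; chance gives about 1 in 20. Gata1 had 8.30 in Mll-AF9 HSC replicate 1, the highest of its group. Tal1 had 6.71 in Mll-AF9 GMP replicate 4, above the other Mll-AF9 GMP values, and 8.25 in wild type HSC replicate 2, below the others. Lmo2 had 11.57 in Mll-AF9 CLP replicate 1, above the others. Mll-AF9 CMP replicate 3 was apart on the low side for both Gfi1b, at 8.09, and Lyl1, at 7.23. Lyl1 had 9.28 in wild type HSC replicate 5, above the others. The Mll-AF9 minus wild type difference of Tal1 varied between populations: its GMP value minus its HSC value was -1.51 by a test of that difference.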

How the results depend on the processing

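No genotype, population or interaction difference that was called reversed under any alternative. Genotype differences kept their side of the threshold in 843 of 850 values, differences of effect in 1814 of 1830 and population differences in 2377 of 2490. Most genotype and effect values belong to members that were not called, so these shares do not measure how stable the calls were. All 7 genotype changes were losses of the 1 call, Tal1 in GMP. Of the changes in effect, 10 were losses of Tal1 between GMP and HSC, the 1 call, and 6 were gains of Tal1 between GMP and CLP. The count of members called in GMP between genotypes (1) became 0 with the Y-linked covariate and 0 with the replicate block, in which Tal1 gave -1.12 with an adjusted p of 0.103. The count over all probe sets (1) was 0 with the Y-linked covariate, with the 3′ minus 5′ covariate and with the replicate block. The CLP minus HSC count in Mll-AF9 cells (1) was 0 with the 3′ minus 5′ covariate and 0 when fitted on the 2 groups only. The interaction count (1) was 2 with quantile normalization, with genes above background only and with the mean of all probe sets, Tal1 between GMP and CLP being added. Causes were not tested. Leaving out 1 replicate gave 0 to 1 for the GMP, CLP minus HSC (Mll-AF9) and all probe set counts and 0 to 2 for the interaction count. The counts between populations became 6 to 9 in wild type cells and 6 to 9 in Mll-AF9 cells for the contrasts other than CLP minus HSC, the lowest being CMP minus CLP in wild type cells (6 to 9, main count 9), CMP minus HSC (6 to 7, main count 7) and GMP minus CLP (6 to 8, main count 8) in Mll-AF9 cells. Replicate numbers did not pair Mll-AF9 with wild type samples of the same population. Over 20 such same-numbered pairs the correlations of deviations ran from -0.29 to 0.19, and 3 pairs correlated best with their own number. In the population contrasts the block joins equal numbers across populations of 1 genotype. Wild type replicate 3 had a Y-linked mean of 7.19 in CMP, 6.47 in GMP and 7.31 in CLP but 2.54 in HSC. Wild type replicate 5 had 6.83 in CLP but 2.56 in CMP, 2.46 in GMP and 2.61 in HSC. Samples of equal number therefore did not all come from the same animal, and whether any of them did was not tested. The replicate block also ended the calls of Gata1 and Klf1 between GMP and CLP in wild type cells (adjusted p = 0.114 and 0.215) and, in Mll-AF9 cells, of Nfe2 and Ldb1 between GMP and CLP (0.167 and 0.0704) and Ldb1 between CMP and CLP (0.0716). It added, in Mll-AF9 cells, Lyl1 and Lmo2 between GMP and CLP (0.0286 and 0.0473), Lmo2 between CMP and CLP (0.0102) and Gata2 between CMP and HSC (0.0492). With 4 to 8 replicates a group, differences smaller than their intervals were not detectable.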
